A study of Homo sapiens with 24 samples.

Results

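Very short introns were taken as the annotated introns of at most 120 bases that overlapped no known feature in the intron table (its class "clean") and whose intron depth plus larger spliced side averaged at least 20 over the 12 nuclear libraries. The table held 233113 introns, of which 227775 were clean and 12652 were clean and no longer than 120 bases. The depth rule kept 8522 of these, in 3532 genes with a symbol, and 76 of them had no gene symbol. A further 121751 longer clean introns met the same depth rule and served as the comparison set.

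The cells were RKO-iCas9, a human colon carcinoma line that carries a doxycycline-inducible Cas9, and a constitutive guide RNA that targets either ERH (sgERH) or, as the control, the AAVS1 safe harbour (sgAAVS1). All 24 libraries came from cells given doxycycline at 100 ng/mL for 5 days, so the controls carried active Cas9 as well. Cells received either the vehicle DMSO or the translation inhibitor cycloheximide (CHX, 25 µg/mL) for 4 h and were then split into nucleus and cytoplasm. This gave 8 groups of 3 libraries of polyadenylated RNA, and the comparisons asked how loss of ERH, a small conserved protein of RNA processing complexes, altered splicing in either fraction. Guide-carrying cells were sorted as pools rather than cloned, so a pool can hold cells in which ERH was not disrupted.

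An intron is removed when the spliceosome joins its 5' and 3' splice sites, and in a short intron the machinery can pair these sites across the intron itself, which is known as intron definition. When an intron stays in an otherwise mature transcript, the RNA is often held in the nucleus. If such an RNA is exported and translated, an in-frame stop codon inside the intron can expose it to nonsense-mediated decay (NMD), a pathway that needs translation and that CHX therefore blocks. Retention was read as the IR ratio. It is the read depth over the intron as a fraction of that depth plus the spliced reads of the larger side, and it runs from 0 (always spliced) to 1 (always retained).

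The introns printed here carry differences described further on, with the first and the last 2 bases, the splice site dinucleotides, in capitals. Sequence was read on the transcribed strand of GRCh38. The first 5 introns were retained more in sgERH than in sgAAVS1 nuclei with DMSO, the next pair were retained less, and the last is the shortest intron of the set with reads exactly across its junction. All lie between coding exons.

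XPOT, 98 bases, intron 7 of 24, chr12:64420255-64420352, plus strand: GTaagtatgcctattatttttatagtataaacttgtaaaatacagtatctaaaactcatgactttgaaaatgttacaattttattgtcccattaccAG
UBE3A, 101 bases, intron 10 of 12, chr15:25354427-25354527, minus strand: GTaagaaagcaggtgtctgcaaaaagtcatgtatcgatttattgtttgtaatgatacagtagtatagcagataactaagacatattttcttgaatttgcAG
SMG1, 103 bases, intron 52 of 62, chr16:18830116-18830218, minus strand: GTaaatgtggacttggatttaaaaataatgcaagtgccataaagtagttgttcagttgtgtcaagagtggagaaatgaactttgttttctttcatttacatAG
FANCI, 77 bases, intron 21 of 37, chr15:89292865-89292941, plus strand: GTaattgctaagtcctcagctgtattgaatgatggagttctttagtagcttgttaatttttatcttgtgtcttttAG
CLK1, 88 bases, intron 6 of 12, chr2:200857885-200857972, minus strand: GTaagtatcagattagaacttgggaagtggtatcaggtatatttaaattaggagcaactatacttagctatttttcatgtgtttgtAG
RPL10, 75 bases, intron 6 of 6, chrX:154400627-154400701, plus strand: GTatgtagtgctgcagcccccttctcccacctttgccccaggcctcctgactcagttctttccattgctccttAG
LARS1, 86 bases, intron 16 of 31, chr5:146144538-146144623, minus strand: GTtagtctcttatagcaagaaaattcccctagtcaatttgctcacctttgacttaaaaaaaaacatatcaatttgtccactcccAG
HNRNPH1, 56 bases, intron 7 of 13, chr5:179617933-179617988, minus strand: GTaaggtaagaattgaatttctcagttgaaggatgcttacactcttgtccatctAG

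The 5 printed introns with more retention are poor in G and C (25.5% to 32.5% GC), whereas the RPL10 intron has 56.0% GC and the LARS1 intron 34.9%.

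ERH itself checked the guides. In cytoplasm with DMSO it measured 137, 158 and 152 CPM (read counts scaled to the library total) in sgAAVS1 and 72.9, 86.9 and 59.4 in sgERH, and the groups did not overlap (log2 fold change -1.03, SE 0.11, edgeR adjusted p = 1.12e-06). In nuclei with DMSO it went from 16.5, 21.8 and 15.6 CPM to 14.9, 12.5 and 11.4 (log2 fold change -0.48, SE 0.16, adjusted p = 0.027). In nuclei with CHX the groups overlapped (15.6, 14.2 and 14.1 CPM against 11.9, 16.8 and 11.8), and the library labelled sgERH nucleus CHX replicate 2 lay above all 3 controls. In cytoplasm with CHX the levels were 118, 122 and 107 CPM against 68.4, 81.0 and 61.6. Of the epithelial markers, KRT8 was at 42.9 to 159 CPM and KRT18 at 63.0 to 129 CPM over the nuclear libraries and EPCAM reached only 5.60 CPM, while CDH1 and the leukocyte marker PTPRC did not pass the filter on low counts. The nuclear RNA MALAT1 measured 3272 to 6956 CPM in nuclei and 190 to 328 CPM in cytoplasm. Nuclear libraries held 21163500 to 34156617 exact spliced reads over all introns and cytoplasmic libraries 45527880 to 88868531, and a very short intron had a median of 157 to 350 units of depth plus spliced reads in a library.

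The members were introns by their sequence as well as by their length. They spanned 53 to 120 bases with a median of 92, and 8431 (98.9%) began with GT and ended with AG, 87 were GC-AG and 2 were AT-AC. Most, 8291 (97.3%), lay between coding exons, against 177 in 5' UTRs and 34 in 3' UTRs. Read through from the upstream exon, 5538 (65.0%) held an in-frame stop codon, 1992 (23.4%) shifted the frame without a stop inside, and 761 (8.93%) were open with a length that is a multiple of 3. Their median GC content was 60.0%, and 1874 (22%) had less than 40% GC. An annotated exon of another transcript covered 1808 (21.2%) from end to end, and for these the RNA of that transcript and true retention cannot be told apart. The gene with the most very short introns was TTN, which encodes titin, the giant spring protein of muscle, with 35, and 87 genes held at least 10.

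In sgAAVS1 nuclei with DMSO retention was common but shallow. The median IR ratio over the very short introns was 0.0752, 0.0737 and 0.0757 in the 3 libraries. Averaged over these libraries, 5190 introns (60.9%) had an IR ratio of at least 0.05, 3656 (42.9%) of at least 0.1, 505 (5.93%) of at least 0.5 and 40 (0.469%) of at least 0.9. Most of these introns were thus spliced out of most RNA molecules, with a small set in which the intron was the usual form. In the cytoplasm of the same cells the median was 0 in every library, 4270 introns (50.1%) were at 0 in all 3 libraries, and 256 (3.00%) reached an IR ratio of 0.1.

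The typical very short intron had a lower IR ratio in sgERH than in sgAAVS1 nuclei. These ratios carry no scaling between intron and spliced reads. Over all introns tested in nuclei the median log2 fold change was negative too, at -0.34 with DMSO and -0.90 with CHX. The fall was thus not particular to very short introns, and the direction of single calls depended on scaling, as given below. The median fell to 0.0683, 0.0695 and 0.0698 in sgERH nuclei with DMSO, below all 3 controls. With CHX it was 0.0625, 0.0595 and 0.0596 in sgAAVS1 and 0.0423, 0.0328 and 0.0421 in sgERH, again without overlap. Over both treatments the medians differed by -0.0136 (sgERH minus sgAAVS1, exact two-sided permutation test of guide labels within treatment, p = 0.005, the smallest that its 400 arrangements allow, adjusted p = 0.00706 over 24 tests of this kind). Without the library labelled sgERH nucleus CHX replicate 2, the lowest of all and the one whose ERH level lay above the controls, the difference was -0.0120 (exact permutation p = 0.005). The share of very short introns with an IR ratio of at least 0.1 gave the same order. With DMSO it was 43.0% ± 0.118 (SD, n = 3) in control nuclei and 40.7% ± 0.235 in sgERH nuclei, while with CHX these shares were 37.5% ± 0.684 and 28.7% ± 1.40. Depth moved with the guide as well: with DMSO the control nuclei held 23970421 to 26298722 exact spliced reads and the sgERH nuclei 27149932 to 34156617, with CHX 21163500 to 23405602 and 25085106 to 31490111, and the part of depth in these differences was not tested. In bulk RNA, fewer cells of a kind and less RNA per cell cannot be told apart, and neither can partial loss of ERH in all cells from full loss in some.

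**Figure D1:**
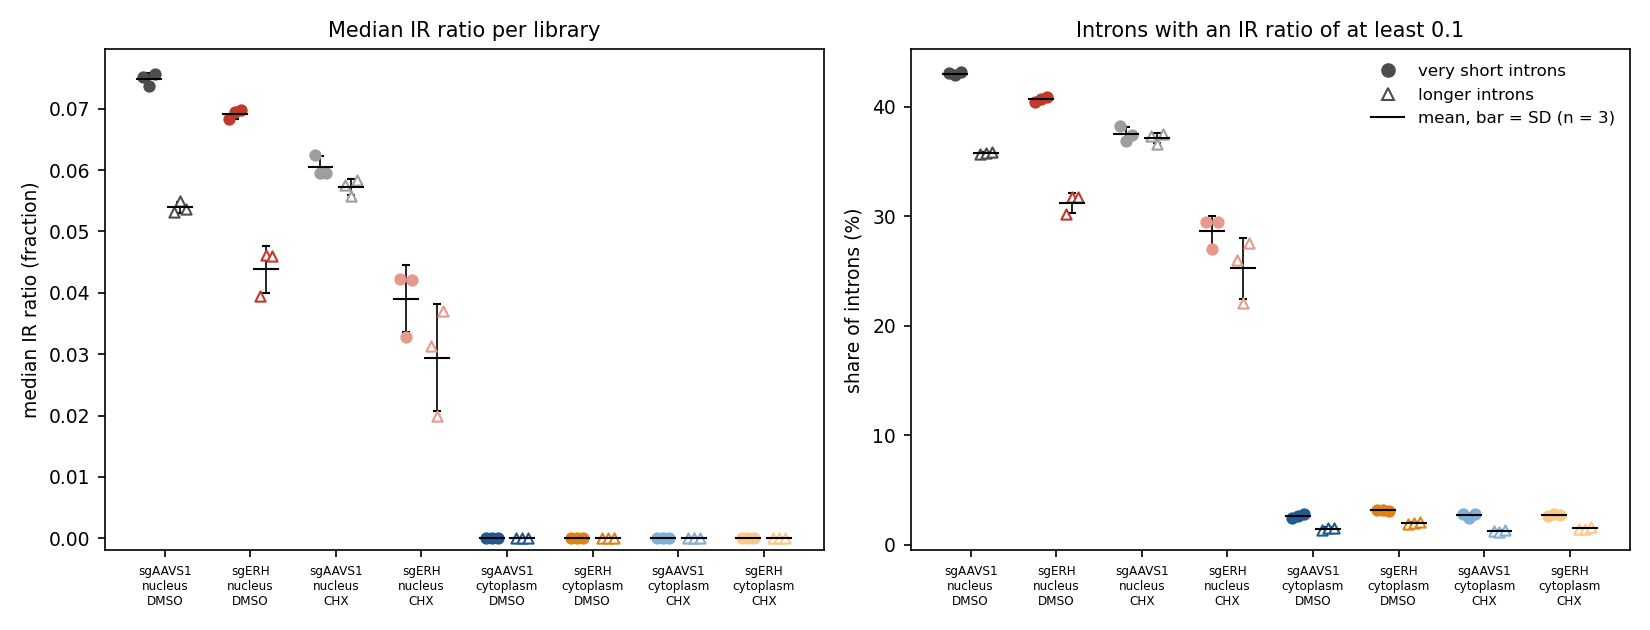
Median IR ratio (left, a fraction) and share of introns with an IR ratio of at least 0.1 (right, in percent) in each of the 24 libraries, by guide, fraction and treatment. Filled circles are very short introns and open triangles longer introns, 1 point per library, with the mean as a line and the SD (n = 3) as a bar; in nuclei the sgERH circles lie below the sgAAVS1 circles with either treatment, and all cytoplasmic medians are 0.

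Longer introns fell more. Their median in nuclei differed by -0.0189 between guides (exact permutation p = 0.005), and the difference between very short and longer introns, taken within each library, was 0.00536 higher in sgERH than in sgAAVS1 (exact permutation p = 0.005, adjusted p = 0.00706). CHX gave the opposite order. It changed the median of the very short introns by -0.0222 (exact permutation of treatment labels, p = 0.005) and that of the longer ones by -0.00558 over both guides, which did not pass the test (exact permutation p = 0.21). That pooled value joins opposite directions in the longer introns. Their median went from 0.0539 ± 0.000910 to 0.0572 ± 0.00130 (SD, n = 3) with CHX in sgAAVS1, where the libraries did not overlap, and from 0.0439 ± 0.00382 to 0.0294 ± 0.00876 in sgERH. The test of the difference itself gave -0.0166 (exact permutation p = 0.005). That contrast was with longer introns as a whole: against introns of 121 to 500 bases, a comparison added after the data were seen, the CHX difference was -0.000326 (exact permutation p = 0.685).

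Between the fractions the very short introns differed by 0.0609 in median IR ratio (nucleus minus cytoplasm, exact permutation over 160000 arrangements, p = 1.25e-05, the smallest these allow), and by 34.7 percentage points in the share with an IR ratio of at least 0.1. The gap between the fractions was 0.0148 wider for very short than for longer introns (exact permutation p = 1.25e-05), but against introns of 121 to 500 bases it was -0.000490 (exact permutation p = 0.47). Every cytoplasmic median was 0 for very short and for longer introns. The differences of 0.0609 and 0.0148 thus restate nuclear medians set against 0, and their p-values do not measure a cytoplasmic level. All these introns were chosen on nuclear reads alone, and one without reads counts as 0. Of the 8522 very short introns, 8326 averaged at least 10 units in sgAAVS1 nuclei with DMSO and 7687 in the cytoplasm. These fraction tests thus describe the introns so chosen, and the part of that choice was not tested. In cytoplasm that share was 2.50%, 2.64% and 2.82% in sgAAVS1 with DMSO and 3.20%, 3.23% and 3.12% in sgERH, which did not overlap. Those control libraries were the deeper ones, at 67439174 to 88868531 exact spliced reads against 45527880 to 64801581, and the part of depth was not tested. With CHX the share was 2.84%, 2.46% and 2.82% against 2.66%, 2.86% and 2.71%, which did. Over both treatments the guides differed by 0.285 percentage points (exact permutation p = 0.04, adjusted p = 0.0505), a difference that missed the threshold after adjustment.

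Length mattered at the short end. In sgAAVS1 nuclei with DMSO the median IR ratio was 0.236 ± 0.00420 (SD over 3 libraries) for the 107 introns of 53 to 70 bases, 0.155 ± 0.00402 for the 1222 introns of 71 to 80 bases and 0.0792 ± 0.00115 for the 2555 of 81 to 90 bases. It then levelled at 0.0576, 0.0553 and 0.0603 for the next 3 steps of 10 bases, and rose to 0.0820 for introns of 151 to 200 bases before it fell to 0.0401 beyond 10000 bases. The limit of 120 bases cut no step in this curve, since the 1174 introns just inside it (111 to 120 bases) had a median of 0.0603 and the 956 just outside (121 to 130 bases) 0.0649. The depth limit did sit on a slope, with 0.0490 for the 150 introns at a depth of 20 to 25 and 0.0117 for the 181 introns at 15 to 20.

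**Figure D2:**
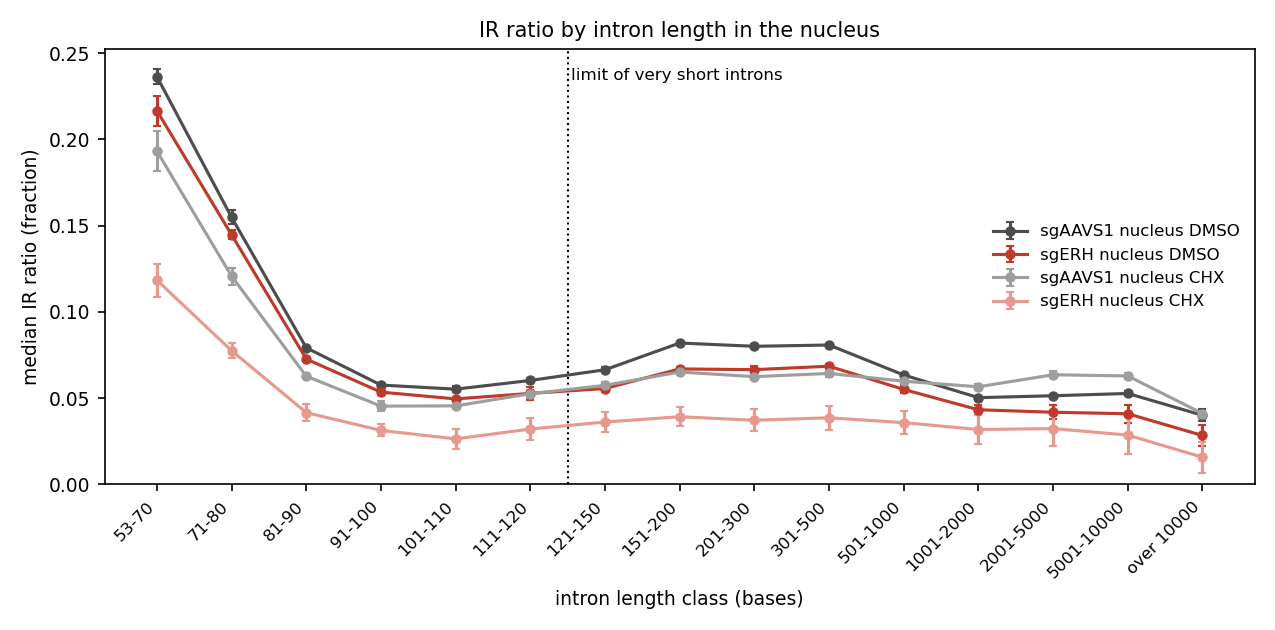
Median IR ratio (vertical axis, a fraction) of clean introns in nuclei by class of intron length in bases (horizontal axis), 1 line per nuclear group, each point the mean of 3 libraries with the SD as a bar. The dotted line marks the limit of 120 bases; medians are highest for introns of 53 to 70 bases, 0.236 in sgAAVS1 with DMSO, and the line of sgERH with CHX is the lowest in every class.

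GC content and annotation went with the level too. In sgAAVS1 nuclei with DMSO the median rose from 0.0303 for the 1000 introns under 30% GC to 0.0851 at 50 to 60% and 0.0949 at 60 to 70%. Introns that an annotated exon covered had a median of 0.221, against 0.0544 for the others. Those in 5' UTRs stood at 0.150 and those between coding exons at 0.0740. By reading frame, introns with an in-frame stop were at 0.0702, frameshifting ones at 0.0899 and open ones at 0.0682. The quartile of introns with the weakest 3' splice sites, scored by the base frequencies at the sites of all clean GT-AG introns, had 0.0983 and the strongest quartile 0.0568, while the corresponding values for 5' splice sites were 0.0895 and 0.0701. Introns in 5' UTRs were also the class most often seen in cytoplasm, where 11.1% had an IR ratio of at least 0.1 against 2.46% of those between coding exons. These features overlap, and their separate parts were not tested.

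The most retained very short introns were led by 5' UTR introns. Among introns without exon overlap and with enough reads, those of RELT (119 bases, a TNF receptor family member) and SLC25A39 (99 bases, the mitochondrial glutathione carrier) averaged 1.00 and 0.993 in sgAAVS1 nuclei with DMSO, followed by CEP43 at 0.989, GDPD5 at 0.983, DOK3 at 0.968 and ATL2 at 0.964. RELT, SLC25A39, GDPD5 and DOK3 are 5' UTR introns and those of CEP43 (a centrosome protein) and ATL2 lie between coding exons. The last intron of a shorter ATL2 transcript, which encodes an atlastin GTPase of the endoplasmic reticulum, was also the top one in sgAAVS1 cytoplasm with DMSO, at 0.834, 0.873 and 0.842. There it measured 0.744, 0.757 and 0.787 in sgERH, so the groups did not overlap, but its retention test gave an adjusted p of 0.893 (edgeR) on 0 to 6 exact spliced reads in a library. At the other end of the length range, the MKNK2 intron of 53 bases, a GC-AG intron at chr19:2046469-2046521 (minus strand), gave 0.656, 0.628 and 0.675 in sgAAVS1 nuclei and 0.520, 0.652 and 0.582 in sgERH nuclei with DMSO. No library had a read exactly across it, so its spliced side came from other junctions at the same sites.

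To ask which single introns changed, intron depth was tested against exact spliced reads over all clean introns with enough reads, with 3 conditions for a call: an adjusted p of at most 0.05, a log2 fold change of 1 or more in size, and a mean IR ratio of 0.05 or more on the side where retention is higher. Of the 8522 very short introns, 8155 could be tested in nuclei and 3989 in cytoplasm. An intron could enter through the group where it is high, so the counts describe the tested introns alone.

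In nuclei with DMSO, 109 very short introns in 93 genes were retained more in sgERH and 163 in 151 genes less. That is 1.34% and 2.00% of those tested, beside 1.28% and 2.39% of all 108600 introns tested. Both counts depend on single libraries: they fell to 71 higher without sgAAVS1 replicate 1 and to 78 lower without sgAAVS1 replicate 3, and without introns that overlap an exon 71 were lower. With CHX 71 rose and 918 fell (0.871% and 11.3%, beside 0.889% and 13.8% of all introns). In cytoplasm with DMSO 31 rose and 7 fell (0.777% and 0.175%, beside 1.42% and 0.146%), and with CHX 11 rose and 14 fell (0.276% and 0.351%, beside 0.685% and 0.151%). Very short introns were thus called about as often as introns at large in nuclei. In cytoplasm they were called higher less often, and with CHX lower more often (14 introns, 0.351% beside 0.151%). None of these shares was tested against the other.

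The split depended on scaling. The median log2 fold change over all introns tested was -0.34 with DMSO and -0.90 with CHX in nuclei, and 58.8% and 62.1% of the very short introns lay above it. When intron and spliced reads were each normalised by TMM, which sets that median near 0, the nuclear calls became 141 higher and 43 lower with DMSO and 182 higher and 79 lower with CHX. The cytoplasmic calls became 17 higher and 11 lower with DMSO and 10 higher and 21 lower with CHX. Where a named intron keeps its call under this scaling, it moved relative to the other introns as well.

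Introns that rose were poor in GC. Of the 109 that rose in sgERH nuclei with DMSO, 86 (78.9%) had under 40% GC, against 21% of the very short introns tested, and their median GC was 31.5% against 60.4%. By class, 49 of 890 introns under 30% GC rose (5.51%), 37 of 825 at 30 to 40% (4.48%), and 1 of 1613 at 50 to 60% (0.0620%). The same gradient held in other libraries and other introns: with CHX 52 of the 71 that rose (73.2%) had under 40% GC, and among introns of 121 to 500 bases the shares that rose with DMSO were 7.68% and 3.47% in the lowest classes. Introns that fell had no such lean, with 39 of 163 (23.9%) under 40% GC, but 77 of them (47.2%) were covered by an annotated exon. An in-frame stop was present in 91 of the 109 that rose (83.5%) and 113 of the 163 that fell (69.3%), beside 65.1% of the very short introns tested. Stops were not compared within classes of GC content, so their part cannot be told apart from that of GC. Over all very short introns tested, GC content and log2 fold change had no steady trend in 1 direction (Spearman rho 0.027 over 8154 introns, which share libraries and genes). The median log2 fold change was lowest in the middle classes. It was -0.055 under 30% GC, -0.345 at 40 to 50%, -0.338 at 50 to 60% and -0.054 at 70% and over.

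**Figure D3:**
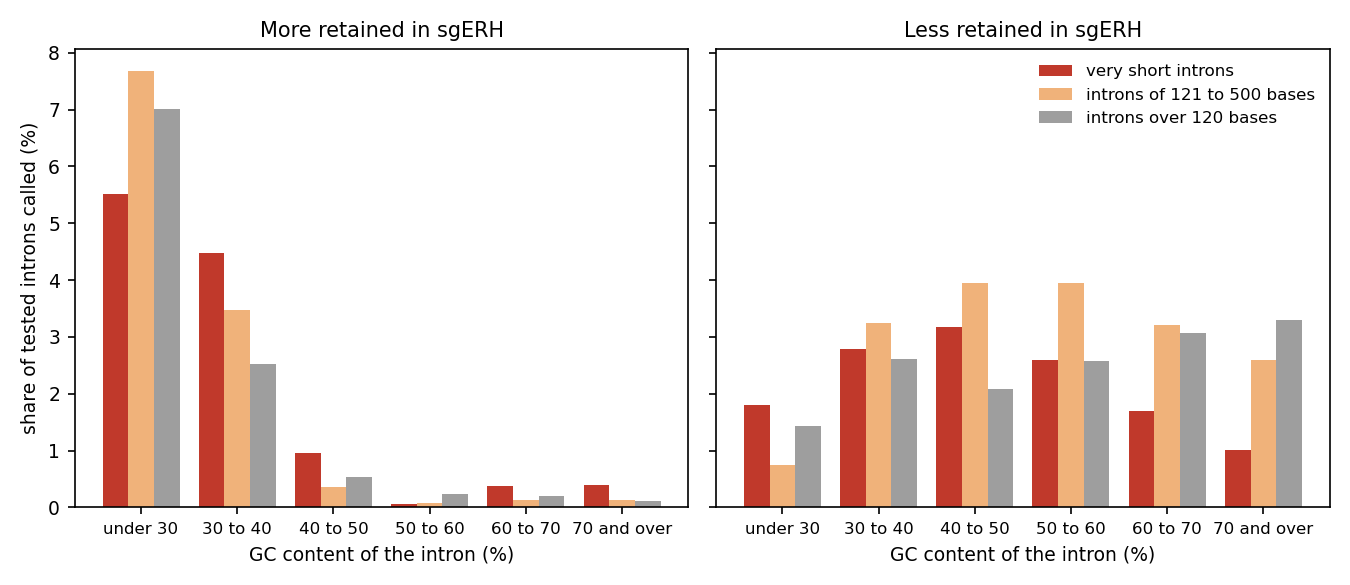
Percentage of the introns tested that were retained more (left) or less (right) in sgERH than in sgAAVS1 nuclei with DMSO (vertical axis), by GC content of the intron in percent (horizontal axis), for very short introns, introns of 121 to 500 bases and all introns of over 120 bases. The share that rose was highest under 30% GC, 5.51% of the very short introns and 7.68% of those of 121 to 500 bases, and was under 1% in every class from 40% GC upward.

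Of the 101 introns of 53 to 70 bases tested in nuclei with DMSO, none rose and 1 fell (0.990%). At 111 to 120 bases, with 1100 tested, the shares were 1.82% and 2.73%. The shortest class is small, 80 of its 107 introns had at least 60% GC, and length was not separated from GC content here. With CHX the share that fell had no steady change with length, at 10.9%, 14.9%, 11.5%, 8.82%, 11.4% and 10.8% from the shortest class to the longest.

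The rise with the smallest adjusted p among the named introns was in ASPM, which encodes a spindle pole protein needed for neural progenitor divisions. Its 115-base intron had an IR ratio of 0, 0.0174 and 0.0138 in sgAAVS1 nuclei with DMSO and 0.470, 0.490 and 0.516 in sgERH, a log2 fold change of 6.60 (SE 0.51, edgeR adjusted p = 1.50e-06). With CHX it went from 0.189, 0.266 and 0.253 to 0.703, 0.700 and 0.682. The control itself was thus higher with CHX, and sgERH lay above it in both treatments. In cytoplasm with DMSO the same intron had 0.0146, 0 and 0 in sgAAVS1 and 0.193, 0.517 and 0.188 in sgERH. Another ASPM intron, of 86 bases, went from 0.0603, 0.0656 and 0.0439 to 0.449, 0.588 and 0.577 in nuclei with DMSO. In cytoplasm it was at 0 in all 3 controls and at 0.297, 0.541 and 0.532 in sgERH, at least 69.5-fold higher when the control is set to a floor of 3 units of intron depth over the group (adjusted p = 0.000410).

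Other introns with a large rise lay in genes of unlike function. ARFGEF1, an exchange factor for ARF GTPases of the Golgi, has a 106-base intron (chr8:67266985-67267090, minus strand, intron 12 of 38, 23.6% GC) that was nearly always spliced in sgAAVS1, at 0, 0.00467 and 0.00850, and reached 0.353, 0.474 and 0.325 in sgERH (adjusted p = 4.25e-05). XPOT, the export receptor for tRNA, rose in its 98-base intron (chr12:64420255-64420352, plus strand) from 0.0117, 0.00301 and 0.0145 to 0.204, 0.298 and 0.343 (log2 fold change 6.12, SE 0.54, adjusted p = 5.20e-06). UBE3A, the ubiquitin ligase lost in Angelman syndrome, rose in its 101-base intron (chr15:25354427-25354527, minus strand) from 0.0249, 0.00661 and 0.0010 to 0.221, 0.259 and 0.285 (log2 fold change 5.20, SE 0.46, adjusted p = 5.20e-06). In each of these the highest control lay far below the lowest sgERH library.

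The amino acid transporter gene SLC38A6 rose in a 109-base intron (chr14:61051932-61052040, plus strand) from 0.00125, 0.00537 and 0 to 0.133, 0.105 and 0.195 (adjusted p = 0.00257). CENPE, a kinesin of the kinetochore, has a 118-base intron (chr4:103149000-103149117, minus strand) at 0.00297, 0 and 0.0213 in sgAAVS1 and at 0.0667, 0.472 and 0.179 in sgERH (adjusted p = 0.0174). For VPS13A, a lipid transfer protein, the 80-base intron (chr9:77238192-77238271, plus strand, 20% GC) went from 0, 0.00935 and 0.0125 to 0.0973, 0.222 and 0.312 (adjusted p = 0.0290). These groups did not overlap, but the CENPE and VPS13A calls rested on few reads and were lost when single libraries were left out.

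DICER1, the nuclease that matures microRNAs, did not keep its direction. Its 118-base intron (chr14:95107762-95107879, minus strand) measured 0, 0.00533 and 0 in sgAAVS1 and 0.174, 0.0537 and 0.0826 in sgERH with DMSO (adjusted p = 0.0192), yet with CHX it measured 0.199, 0.337 and 0.229 in sgAAVS1 and 0, 0 and 0.0745 in sgERH. In sgAAVS1 alone CHX raised it (adjusted p = 0.00116). The call in DMSO was also lost when reads across the exon-intron boundary replaced intron depth, and without any of 4 single libraries.

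**Figure D4:**
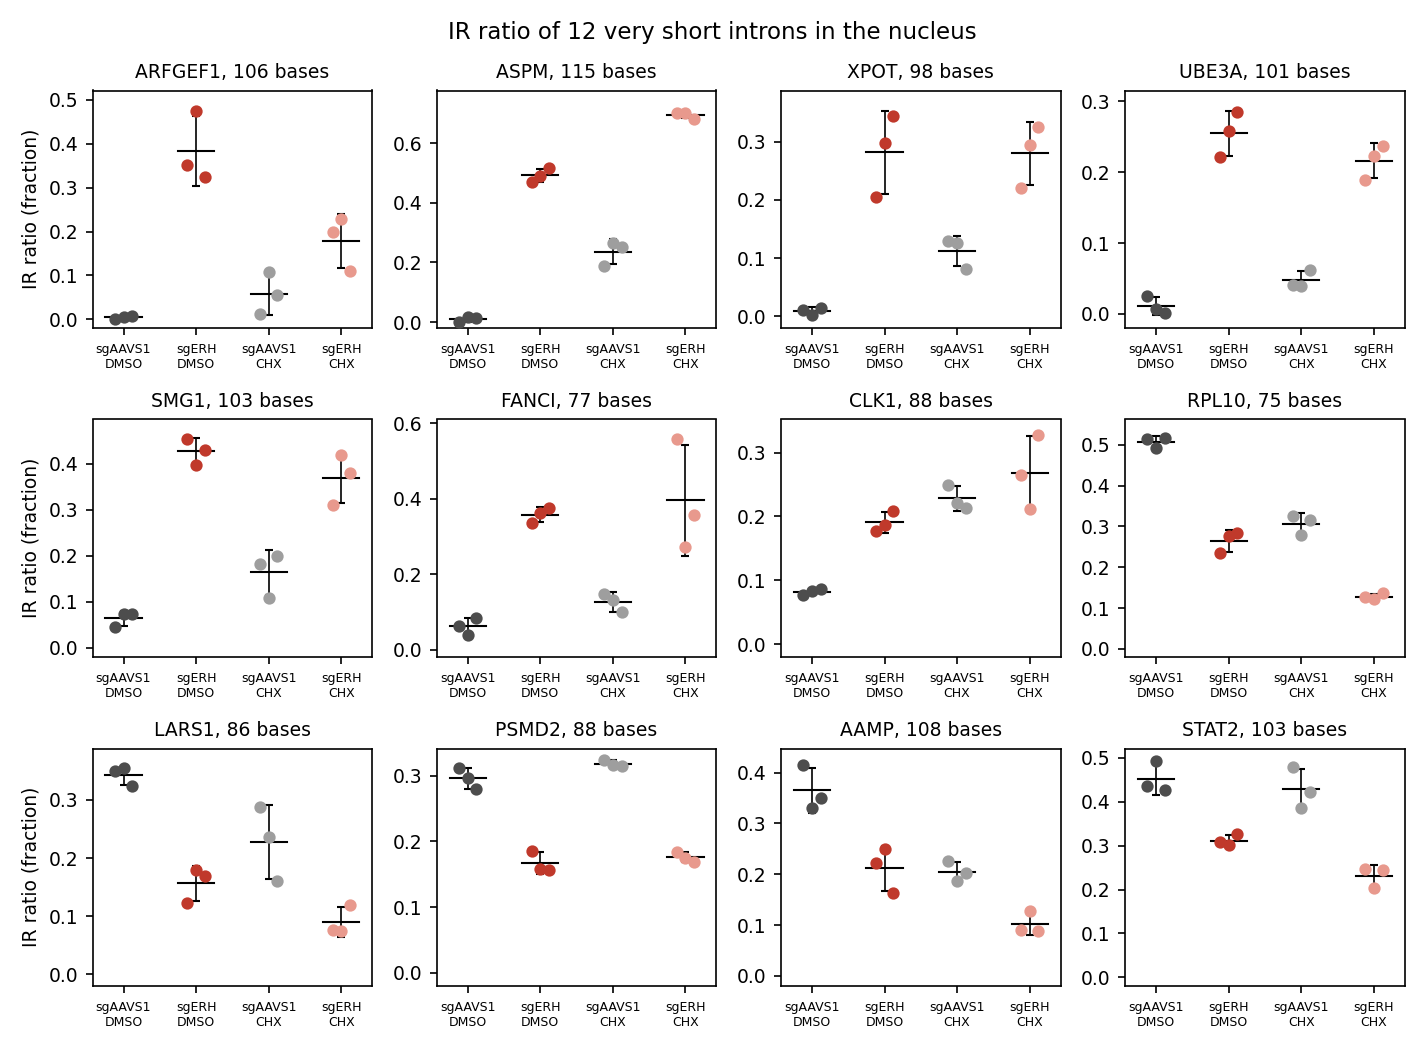
IR ratio (vertical axes, a fraction, each panel with its own scale from 0) of 12 very short introns in nuclei, with the 3 libraries of each of the 4 nuclear groups as points, their mean as a line and the SD as a bar. With DMSO every sgERH library lies above every control for ARFGEF1, ASPM, XPOT, UBE3A, SMG1, FANCI and CLK1, and below every control for RPL10, LARS1, PSMD2, AAMP and STAT2.

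The introns that fell most, by the fold, rested on thin data. In MED1, a Mediator subunit, the 104-base intron (chr17:39440519-39440622, minus strand) was at 0.0321, 0.0577 and 0.192 in sgAAVS1 nuclei with DMSO and at 0 in all 3 sgERH libraries, at least 8.48-fold lower against the floor (adjusted p = 0.0173). USP47, a deubiquitinase, went from 0.205, 0.0386 and 0.0238 to 0.00652, 0.00837 and 0 in its 90-base intron (chr11:11920252-11920341, plus strand, adjusted p = 0.0340). GDPD5, a phosphodiesterase of choline metabolism, had its 5' UTR intron of 99 bases (chr11:75451234-75451332, minus strand) at 0.961, 1.00 and 0.989 and fell to 0.835, 0.867 and 0.744 (adjusted p = 0.0236). In AAMP, the 108-base intron (chr2:218265947-218266054, minus strand), which an annotated exon covers, went from 0.414, 0.330 and 0.350 to 0.223, 0.250 and 0.163 (adjusted p = 0.0499) with no exact spliced read in any control library. The calls of USP47, GDPD5 and AAMP were lost with separate TMM scaling (adjusted p = 0.0736, 0.0677 and 0.0923), and that of USP47 also with DESeq2 (adjusted p = 0.0658).

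Introns that rose with DMSO stayed apart in the other libraries. Of the 109, 36 were also called higher with CHX in nuclei, which is 33.0% of these 109 and 50.7% of the 71 called there, and 1 was called lower. Their log2 fold changes with CHX were above 0 for 85 of 109, against 25.4% of all very short introns tested, with a median of 0.75 against -0.62. In cytoplasm with DMSO 88 of them could be tested, 13 were called higher and none lower, and 81 were above 0 (56.9% of all very short introns tested were). Of the 163 that fell, 94 also fell with CHX in nuclei (57.7% of the 163, and 10.2% of the 918 called there), but 2 of the 137 that could be tested fell in cytoplasm with DMSO. These comparisons share no library with the one that chose the introns, although nucleus and cytoplasm came from the same cells.

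Retention in a gene was not limited to its very short introns. The 92 genes with a symbol and at least 1 very short intron that rose with DMSO held 325 very short introns that were tested, of which 108 rose and 2 fell, a count that the choice of the genes largely sets. They also held 1715 longer introns that were tested, of which 194 rose (11.3%, beside 1.28% of all introns tested) and 43 fell, and in 62 of the genes at least 1 longer intron rose. These longer introns were read in the same libraries that chose the genes, so their share is not independent of that choice. The share over all introns was not matched for GC content or depth. TTN had the most, with 8 of 27 very short introns higher and none lower (median log2 fold change 1.82), beside 7 of 92 longer ones (median 0.28).

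RNA levels of the host genes moved little in nuclei. Of the 93 genes with an intron that rose with DMSO, 2 were higher and 5 lower at the gene level (2.15% and 5.38%, beside 4.77% and 1.73% of all 17330 genes tested), with a median log2 fold change of -0.21. Genes with a very short intron that was not called had 1.87% higher and 1.63% lower, with a median of -0.10. Among the lower ones were CENPE (log2 fold change -2.02, edgeR adjusted p = 9.59e-10) and CLK1 (-1.33, adjusted p = 5.66e-08). ASPM, just short of the size limit, was at -0.81 (adjusted p = 1.75e-07). UBE3A, XPOT and SMG1 were not called, at 0.25, 0.10 and 0.23. In cytoplasm, where 25 genes held an intron that rose with DMSO, 5 of the genes were lower and none higher (20%, beside 2.16% of all 16130 genes lower and 9.30% higher), with a median of -0.46. Genes with a very short intron that was not called there had 3.11% lower and 2.28% higher, with a median of -0.19.

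Genes grouped by role did not share a direction. The lists also differed in GC content, with medians of 32.2% (SR proteins, hnRNPs and kinases) to 59.2% (interferon-gamma pathway) over the introns tested in nuclei. The mitosis list had 44.4%, beside 60.4% over all very short introns tested, and the part of GC content in the shares was not tested. Among genes of mitosis and the centrosome, 5 of 88 introns tested rose in nuclei with DMSO (5.68%, beside 1.28% of all introns), in ASPM, BUB1, CENPE and ECT2, and none fell (beside 2.39%). The median of the list was 0.02, beside -0.34 over all introns. With CHX 3 rose and 8 fell (3.41% and 9.09%, beside 0.889% and 13.8%). BUB1 is a checkpoint kinase and ECT2 activates RHOA for cell division. In cytoplasm with DMSO 4 of 49 rose, and none of the other lists had an intron that rose there.

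Genes of DNA replication and repair went both ways, with 5 of 118 introns higher, in BRCA2, DNA2, FANCB and FANCI, and 4 lower, in EME1, MCM7, RECQL4 and XPC (4.24% and 3.39%, beside 1.28% and 2.39% of all introns). With CHX 2 were higher and 14 lower (1.69% and 11.9%, beside 0.889% and 13.8%), and FANCI had introns in both directions. FANCI, which licenses the repair of DNA crosslinks, rose in its 77-base intron (chr15:89292865-89292941, plus strand) from 0.0625, 0.0381 and 0.0836 to 0.335, 0.363 and 0.375 (log2 fold change 3.20, SE 0.39, adjusted p = 0.000153). With CHX it went from 0.149, 0.132 and 0.0986 to 0.558, 0.273 and 0.356. Neither treatment had overlap between the guides.

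For SR proteins, hnRNPs and the kinases that phosphorylate SR proteins, 3 of 46 rose (CLK1, CLK4 and HNRNPDL) and 2 fell (HNRNPU and HNRNPUL2), which is 6.52% and 4.35% beside 1.28% and 2.39% of all introns. With CHX 2 rose and 5 fell (4.35% and 10.9%, beside 0.889% and 13.8%). The introns of this list had a median GC content of 32.2%, and 4.48% of the very short introns at 30 to 40% GC rose with DMSO. CLK1 is a splicing kinase, and its 88-base intron (chr2:200857885-200857972, minus strand) went from 0.0774, 0.0839 and 0.0860 to 0.177, 0.187 and 0.208 with DMSO (log2 fold change 2.85, SE 0.23, adjusted p = 2.16e-06). Intron depth itself overlapped between the guides, at 206, 194 and 179 units against 195, 308 and 318, whereas exact spliced reads dropped from 2249, 1926 and 1767 to 261, 477 and 434. With CHX the IR ratios overlapped, at 0.250, 0.221 and 0.214 in sgAAVS1 and 0.265, 0.212 and 0.327 in sgERH.

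SMG1, the kinase that activates UPF1 in NMD, was the 1 of 18 introns of the NMD and exon-junction complex list that rose (5.56%, beside 1.28% of all introns), and none fell. With CHX 1 rose and 3 fell, in EIF4A3, SMG9 and UPF1 (16.7%, beside 13.8%). The 103-base intron of SMG1 (chr16:18830116-18830218, minus strand) went from 0.0449, 0.0745 and 0.0725 to 0.453, 0.398 and 0.430 with DMSO (log2 fold change 3.85, SE 0.36, edgeR adjusted p = 9.95e-06). It rose with CHX too, from 0.182, 0.109 and 0.201 to 0.310, 0.418 and 0.379.

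Cytosolic ribosomal proteins had the most calls of any list and all were downward. Of 27 introns tested, 10 fell with DMSO (37.0%, beside 2.39% of all introns) and none rose, in FAU, RPL10, RPL21, RPL5, RPL6, RPLP0, RPS2, RPS25 and RPS6. Their median log2 fold change was -1.04, and the median IR ratio of the 27 introns went from 0.0705, 0.0607 and 0.0722 to 0.0273, 0.0348 and 0.0316. With CHX 10 of 27 fell as well, with a median of -1.60. RPL10, a protein of the large subunit, shows the size of the drop. Its 75-base intron (chrX:154400627-154400701, plus strand, covered by an annotated exon) went from 0.514, 0.491 and 0.517 to 0.234, 0.277 and 0.284 (log2 fold change -1.52, SE 0.16, adjusted p = 2.40e-05) and with CHX from 0.326, 0.279 and 0.315 to 0.126, 0.122 and 0.136. With separate TMM scaling the RPL10 call remained (log2 fold change -1.24).

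Proteasome subunits and aminoacyl-tRNA synthetases had few calls with DMSO. In the proteasome list 1 of 33 rose (PSMD6) and 2 fell (PSMD2 and another intron of PSMD6), and with CHX 5 fell (15.2%, beside 13.8% of all introns). PSMD2, a subunit of the regulatory cap, went from 0.311, 0.297 and 0.279 to 0.186, 0.158 and 0.157 in its 88-base intron (chr3:184307526-184307613, plus strand, log2 fold change -1.07, SE 0.14, adjusted p = 0.000203), a drop that under separate TMM scaling was below the size limit (-0.80). Of 67 introns of synthetase genes, 1 rose (NARS1) and 1 fell (LARS1), and with CHX 10 fell (14.9%). LARS1 charges leucine tRNA, and its 86-base intron (chr5:146144538-146144623, minus strand, covered by an annotated exon) fell from 0.350, 0.354 and 0.324 to 0.123, 0.179 and 0.168 (log2 fold change -1.52, SE 0.28, adjusted p = 0.00475).

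Splicing factors known for short introns or intron definition showed no call in 37 introns with DMSO, with a median log2 fold change of -0.22, and 1 fell with CHX (RBM10, 2.70% of the list, beside 13.8%). The intron of the list with the smallest p was in SON, a scaffold of nuclear speckles. This 101-base intron (chr21:33559776-33559876, plus strand) went from 0.0791, 0.0726 and 0.0901 to 0.0524, 0.0512 and 0.0539. Its log2 fold change was -0.87 (edgeR adjusted p = 0.0331), under the size limit. The 56-base intron of HNRNPH1, an hnRNP that binds G runs, overlapped between guides with DMSO, at 0.188, 0.182 and 0.20 in sgAAVS1 and 0.197, 0.192 and 0.195 in sgERH (log2 fold change 0.04, SE 0.13, adjusted p = 0.945), on 4110 to 7241 exact spliced reads in a library.

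Interferon-gamma pathway genes, the pathway the study was concerned with, had 17 introns tested and no call with DMSO. Of the 18 genes of this list, 7 had a very short intron. The study reports nuclear intron retention in JAK2 in sgERH cells, and the counts here do not cover the longer introns of any gene. The smallest p of the list was that of a 103-base intron of STAT2 (chr12:56349060-56349162, minus strand, covered by an annotated exon). It went from 0.436, 0.493 and 0.427 to 0.308, 0.301 and 0.326, with a log2 fold change of -0.85 (SE 0.22, edgeR adjusted p = 0.0374), again under the size limit. With CHX 2 of the 17 introns fell, both in STAT2 (11.8%, beside 13.8% of all introns).

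**Figure D5:**
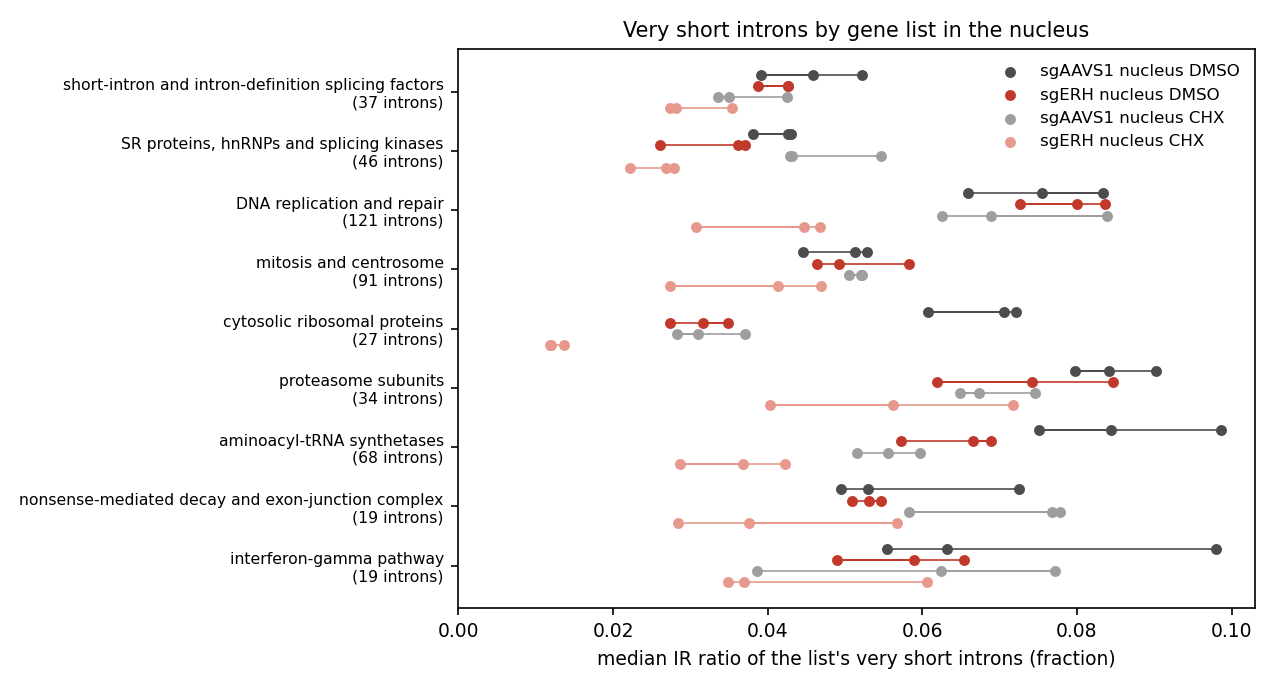
Median IR ratio (horizontal axis, a fraction) of the very short introns of each list of genes (vertical axis), 1 point per nuclear library, with a line from the lowest to the highest library of a group. For cytosolic ribosomal proteins the sgERH points with DMSO (0.0273 to 0.0348) lie below the sgAAVS1 points (0.0607 to 0.0722), while for genes of mitosis and the centrosome the 2 groups overlap.

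With CHX the introns named for a rise between guides in nuclei were in TTN, WWP1, CDAN1 and ARFGEF1. The effect of the guide itself differed between CHX and DMSO for 8 very short introns, all lower with CHX (0.0981% of the 8155 tested, beside 0.0709% of all introns). The 102-base TTN intron (chr2:178777318-178777419, minus strand) was at 0 in all sgAAVS1 libraries of either treatment and at 0.202, 0.582 and 0.169 in sgERH with CHX, at least 15.6-fold higher (adjusted p = 0.00863). WWP1, a ubiquitin ligase, rose in its 91-base intron from 0.0541, 0.0123 and 0.0333 to 0.411, 0.509 and 0.411 (log2 fold change 4.81, SE 0.47, adjusted p = 1.81e-05), and was at 0.0173, 0.0562 and 0.0577 against 0.326, 0.491 and 0.488 with DMSO. ARFGEF1 went from 0.0111, 0.108 and 0.0559 to 0.199, 0.227 and 0.110 (log2 fold change 4.64, adjusted p = 0.000944). CDAN1, with 0 in all controls against 0.0247, 0 and 0.130, was at the edge of the test (at least 3.65-fold higher, adjusted p = 0.0492), and its call was lost with separate TMM scaling (adjusted p = 0.0595) and with DESeq2 (adjusted p = 0.0550).

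On the lower side with CHX, GNB3, a G protein subunit, went from 0.560, 0.333 and 0.555 to 0.260, 0 and 0.166 (81 bases, chr12:6843696-6843776, plus strand, adjusted p = 0.00357). The 5' UTR intron of the transcription factor gene MAFF went from 0.267, 0.311 and 0.349 to 0.0990, 0.196 and 0.124 (adjusted p = 0.0105). Neither had an exact spliced read in the controls, and the MAFF call was lost with separate TMM scaling (adjusted p = 0.0989).

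In cytoplasm with DMSO the named introns that rose in sgERH were at or near 0 in every control. Besides ASPM and CENPE (0, 0 and 0 against 0.186, 0.0186 and 0.250 in its 118-base intron, at least 33.1-fold higher, adjusted p = 0.00134) they included LRRCC1, a centrosomal protein, whose 94-base intron measured 0 in all controls and 0.0577, 0.0695 and 0.0863 in sgERH, at least 38.5-fold higher (adjusted p = 6.77e-05). Among the lower ones was the 5' UTR intron of CDC123, a translation initiation assembly factor (106 bases, chr10:12196024-12196129, plus strand), which went from 0.755, 0.724 and 0.807 to 0.506, 0.552 and 0.478 (log2 fold change -1.59, SE 0.28, adjusted p = 0.00303). PPP1R35 went from 0.366, 0.354 and 0.444 to 0.195, 0.149 and 0.226 (97 bases, chr7:100435534-100435630, minus strand, adjusted p = 0.00182). Both also passed with separate TMM scaling and DESeq2, whereas ABCA2, a lipid transporter that went from 0.0791, 0.0411 and 0.0695 to 0.00553, 0 and 0.0259 (adjusted p = 0.0419), was lost with DESeq2 (adjusted p = 0.201).

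With CHX in cytoplasm LRRCC1 was at 0.00189, 0.00226 and 0.00510 in sgAAVS1 and 0.0448, 0.0742 and 0.0669 in sgERH (log2 fold change 4.32, SE 0.45, adjusted p = 0.000245), and the 115-base ASPM intron at 0.0227, 0 and 0.0112 against 0.248, 0.0611 and 0.276 (log2 fold change 4.50, SE 0.77, adjusted p = 0.00501). TASOR2 and a 91-base TTN intron rose from controls of at most 0.00913 (adjusted p = 0.0212 and 0.00744), and DESeq2 did not call them (adjusted p = 0.146 and 0.101). On the lower side REXO1, an RNA exonuclease, went from 0.0388, 0.0412 and 0.0829 to 0.00493, 0.0140 and 0 (adjusted p = 0.0204), and ARFGEF2, the paralog of ARFGEF1, from 0.0928, 0.142 and 0.0677 to 0.0121, 0.0379 and 0.00855 (adjusted p = 0.0168). DESeq2 did not call these 2 either (adjusted p = 0.136 and 0.153). UBE3A and XPOT, which rose strongly in nuclei, stayed low in cytoplasm with DMSO: the highest sgERH library had 0.0332 for UBE3A and 0.00990 for XPOT.

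CHX alone, compared with DMSO in sgAAVS1 cells, changed more very short introns than sgERH did with DMSO. In nuclei 163 rose and 554 fell (2.00% and 6.79%, beside 4.77% and 3.95% of all introns tested), and the median log2 fold change was -0.35 against 0.0024 over all introns. The introns that fell were rich in GC, with a median of 65.1% and 35 of 554 (6.32%) under 40% GC, whereas 89 of the 163 that rose (54.6%) were under 40% GC. They also fell more often at the short end, 12.9% of introns of 53 to 70 bases and 12% of 71 to 80 bases against 5.64% of 111 to 120 bases. Ribosomal protein genes again had 10 of 27 lower (37.0%, beside 3.95% of all introns) and none higher. In cytoplasm 68 rose and 23 fell (1.70% and 0.577%, beside 0.866% and 1.06%).

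Single introns moved far with CHX. A 118-base TTN intron (chr2:178729170-178729287, minus strand) went from 0, 0.167 and 0 to 0.875, 0.556 and 0.540 in sgAAVS1 nuclei (adjusted p = 0.0168), on at most 14.1 units of depth in a library, and GNB3 from 0.292, 0.326 and 0.20 to 0.560, 0.333 and 0.555 (adjusted p = 0.0372). F12, the gene of coagulation factor XII, fell from 0.637, 0.639 and 0.743 to 0 in all 3 libraries (105 bases, chr5:177404091-177404195, minus strand), at least 16.9-fold lower (adjusted p = 0.00659), and RELT from 1.00 in each to 0.915, 0.620 and 0.701 (adjusted p = 0.0165). In cytoplasm a 96-base TTN intron (chr2:178733518-178733613, minus strand) went from 0, 0 and 0.0625 to 0.424, 0.397 and 0.458 (adjusted p = 0.000562).

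The remaining named introns of that comparison were at lower levels. USP20, a deubiquitinase, went from 0 in all 3 libraries to 0.0769, 0.0209 and 0.0606, at least 21.2-fold higher (72 bases, chr9:129874757-129874828, plus strand, adjusted p = 0.00124), and PLXNA3, a semaphorin co-receptor, from 0, 0.00812 and 0 to 0.0800, 0.0455 and 0.159 (69 bases, adjusted p = 0.0413, but 0.0816 with DESeq2). Lower with CHX were SLC9A5, a sodium-proton exchanger, from 0.192, 0.333 and 0.647 to 0, 0.0606 and 0 (adjusted p = 0.0211), and WDR90, a centriole protein, from 0.0795, 0.0850 and 0.146 to 0, 0 and 0.00467 (adjusted p = 0.00185).

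Between the fractions 4581 of 7961 very short introns tested were retained more in nucleus than in cytoplasm of sgAAVS1 cells with DMSO (57.5%, beside 57.8% of all introns) and 5 less (0.0628%, beside 0.0341%). With separate TMM scaling the counts were 1042 and 251. The mean IR ratio over the very short introns was 0.146 ± 0.00186 (SD, n = 3) in those nuclei and 0.0131 ± 0.000802 in the cytoplasm, and in sgERH it was 0.133 ± 0.000404 and 0.0148 ± 0.000350.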

How the data were processed

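Retention was measured in 24 libraries of polyadenylated RNA (RNA-seq, paired reads), 3 per group, mapped by the authors to GRCh38 with STAR. The deposited intron tables (IRFinder-S, per the study's methods) give per intron a signal of coverage, the intron depth, raw counts of spliced reads at either splice site and exactly across the intron, and the IR ratio, a fraction from 0 to 1. The fraction equalled intron depth over the sum of intron depth and the larger spliced side. Transcript expected counts deposited by the authors (salmon) were summed per gene and rounded. No column belonged to another series.

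Rounded intron depth and exact spliced reads were compared with the quasi-likelihood test of edgeR (version 4.0.16), with 1 intercept per library, a read-type term per group and Benjamini-Hochberg adjustment over all introns tested (a mean of depth plus exact spliced reads of at least 10 and a mean depth of at least 1 in a group). The 12 libraries of a fraction shared 1 fit, and so did the 12 libraries with DMSO for the fractions. A log2 fold change is that of intron depth relative to exact spliced reads. Fits without a library reused the dispersion trend of all libraries. Values per library were compared by exact stratified permutation tests, and gene levels by edgeR with TMM. DESeq2 (version 1.42.0) was an alternative, as were separate TMM scaling, boundary reads, other limits of length, depth and IR ratio, and leaving out introns with exon overlap or warnings. The procedures were tested on simulated data. Gene models were those of GENCODE 44.

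Named were, among introns with a mean of at least 50 reads and 1 intron per gene, the called introns with the largest fold changes (8 up and 4 down in nuclei with DMSO, 4 and 2 in the other guide comparisons, 3 and 2 for CHX), those with the highest levels (6 nuclear, 4 cytoplasmic), the 3 shortest, and 1 per list. Other introns named were chosen after their values were seen. Of the introns this rule gave, 1 is not reported here. The very short introns, the lists and the tests were chosen with earlier results of these data known. Replicates are labelled biological with no further detail, so p-values measure the spread between these libraries alone, and intervals of counting error were not used.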

Additional observations from a re-analysis of the deposited data

Results flagged for a closer look

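For 8 very short introns the effect of sgERH in nuclei differed between CHX and DMSO by the interaction term of the edgeR fit, and in all 8 the effect was lower with CHX (0.0709% of all introns tested were called lower in this way, and none higher). The difference of log2 fold changes was -4.18 for a 92-base intron of WDR75, a ribosome biogenesis factor (adjusted p = 0.00341), whose mean IR ratio went from 0.0107 to 0.179 with DMSO and from 0.191 to 0.187 with CHX. Of these introns 3 lay in TTN, with differences of -3.56 (100 bases), -3.0 (92 bases) and -2.54 (115 bases), and in each sgERH was higher than sgAAVS1 with DMSO and not with CHX (mean IR ratios of 0.0537 and 0.370 against 0.428 and 0.386 for the first). The chaperonin gene CCT8 had a difference of -2.18 in a 113-base intron (adjusted p = 0.00341), going from 0.0924 to 0.267 with DMSO and from 0.232 to 0.189 with CHX. For BMS1 the difference was -2.50 (83 bases), for APEH -2.47 (89 bases) and for the chaperone gene HSPA8 -2.01 (87 bases), where the mean IR ratio went from 0.167 to 0.129 with DMSO and from 0.173 to 0.0362 with CHX. The count ran from 3 to 25 when 1 library was left out and was 52 with DESeq2. With separate TMM scaling WDR75 alone remained past the threshold (adjusted p = 0.0165), the others lying between 0.0864 and 0.246. The cytoplasm had no such call by edgeR or DESeq2, with 116 higher and 284 lower at an unadjusted p under 0.05.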

How the results depend on the processing

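The cause of the changes listed here was not tested. The nuclear medians and shares of the very short introns by guide and by CHX, and their difference between fractions, kept direction and threshold in every alternative run. In the main run the cytoplasmic medians were 0, so the test of the medians between fractions could give no other direction. Leaving out 1 library at a time gave -0.0144 to -0.0120 (guide), -0.0230 to -0.0207 (CHX) and 0.0605 to 0.0617 (fractions) for the median, and -5.81 to -5.20, -8.98 to -8.38 and 34.6 to 34.9 percentage points for the share with an IR ratio of at least 0.1. In cytoplasm the share differed by 0.225 to 0.327 between guides, with an exact permutation p of up to 0.095, and by -0.230 to -0.131 with CHX, while at an IR ratio of at least 0.2 these were 0.121 (exact p = 0.08) and -0.200 (exact p = 0.015). Against longer introns the median differences ranged over 0.00448 to 0.00650 (guide), -0.0175 to -0.0155 (CHX) and 0.0143 to 0.0154 (fractions). The CHX value fell to -0.00388 without introns that carry a warning and to -0.000326 against introns of 121 to 500 bases, and the fraction value to 0.00235 and, reversed, -0.000490. For shares against longer introns the ranges were 2.24 to 3.00, -6.85 to -6.09 and 3.70 to 4.07 in or between nuclei and -0.134 to -0.0561 and 0.129 to 0.205 in cytoplasm, where an IR ratio of at least 0.05 gave -0.402 (exact p = 0.03) and 0.507 (exact p = 0.015).

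Counts of calls moved more. Separate TMM scaling gave 43 lower in nuclei with DMSO, 182 higher and 79 lower with CHX, 17 higher and 11 lower in cytoplasm with DMSO, 1 and 1 lower for the differences of effects in nuclei and cytoplasm, and 1042 higher and 251 lower between fractions. Boundary reads gave 105 lower (nuclei, DMSO), 46 higher (nuclei, CHX), 20 higher and 3 lower (cytoplasm, DMSO), 5 lower (cytoplasm, CHX), 12 lower for CHX itself in cytoplasm, 15 and 5 lower for the differences of effects, and 8 lower between fractions. Without introns that overlap an exon, 71 were lower (nuclei, DMSO), 511 lower (nuclei, CHX), 3 and 7 lower (cytoplasm, DMSO and CHX), 108 higher and 292 lower for CHX in nuclei, 25 higher and 12 lower for CHX in cytoplasm, 3 lower for the difference of effects in nuclei, and 2764 higher between fractions. DESeq2 gave 20 higher and 3 lower (cytoplasm, DMSO), 6 higher and 1 lower (cytoplasm, CHX), 42 higher and 8 lower for CHX in cytoplasm and 52 lower for the difference of effects in nuclei. With a minimum IR ratio of 0.1 the cytoplasm had 20 higher (DMSO), 7 higher (CHX) and 30 higher and 13 lower for CHX itself, and with no minimum 96 and 17, 34 and 24, and 196 and 75. A mean of at least 1 read gave 17 higher and 23 lower in cytoplasm with CHX and 30 and 7 lower for the differences of effects, and at least 50 reads gave 18 lower there in nuclei and 2 lower between fractions.

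Without 1 library the counts ranged over 71 to 87 higher and 78 to 111 lower (nuclei, DMSO), 53 to 70 and 633 to 925 (nuclei, CHX), 21 to 28 and 3 to 9 (cytoplasm, DMSO), 8 to 14 and 6 to 10 (cytoplasm, CHX), 112 to 135 and 413 to 461 (CHX, nuclei), 53 to 59 and 11 to 19 (CHX, cytoplasm), 3 to 25 lower for the difference of effects in nuclei, and 4479 to 4557 and 3 to 9 between fractions. In nuclei with DMSO the 71 higher came without sgAAVS1 replicate 1, and 84, 78, 103, 100 and 102 lower without sgAAVS1 replicates 1 and 3 and sgERH replicates 1, 2 and 3. In cytoplasm the lower counts were 3 without sgERH DMSO replicate 1, and with CHX 6, 9 and 8 without sgAAVS1 replicates 1, 2 and 3 and 9 and 6 without sgERH replicates 1 and 3. For CHX itself in cytoplasm 14 were lower without sgAAVS1 DMSO replicate 2 and 11, 15 and 14 without sgAAVS1 CHX replicates 1, 2 and 3. The difference of effects in nuclei had 5 and 3 lower without sgAAVS1 DMSO replicates 1 and 2, 4 without each sgERH DMSO library in turn, 3 and 5 without sgAAVS1 CHX replicates 2 and 3, and 25 without sgERH CHX replicate 3. Between fractions 9 and 3 were lower without cytoplasmic replicates 1 and 3. Within a fraction, replicate numbers did not pair the libraries: deviations of same-numbered libraries correlated at -0.0239 to 0.0250 in nuclei, none of 18 pairs over 0.1. Pairs of a nuclear and a cytoplasmic library were not examined, and the permutation tests between fractions did not pair them. With the replicate number as a block the difference of effects had 5 lower in nuclei and 1 in cytoplasm, and the guide counts were 108 higher and 142 lower in nuclei with DMSO. In cytoplasm 4270 very short introns had no intron depth in any sgAAVS1 library with DMSO, which leaves few intron reads for the tests there.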
